A study of Mus musculus with 16 samples.

Results

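Described here are 8 core genes of the mTOR pathway in mouse cerebral cortex: Mtor, Rptor, Rictor, Tsc1, Tsc2, Rheb, Akt1 and Nf1. They were chosen by name, because this pathway has been described as altered when the RNA-binding protein FMRP is lost, and they are 8 of the 20436 genes in the deposited gene tables. All 8 were found by symbol in all 16 libraries, and all 8 passed the filter on low counts in both assays.

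mTOR is a protein kinase that promotes protein synthesis and growth and restrains autophagy. It works in a complex with Raptor (gene Rptor), called mTORC1, and in a complex with Rictor, called mTORC2. The small GTPase Rheb switches mTORC1 on at the lysosome, and a complex of hamartin (Tsc1) and tuberin (Tsc2) holds Rheb in its inactive state. The kinase AKT1 (Akt1) relieves that brake downstream of growth factor receptors, and neurofibromin (Nf1) restrains RAS, which feeds into AKT and ERK signalling. Loss of TSC1, TSC2 or NF1 causes human disorders with neurological features.

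The study compared cortex of wild type mice (WT), mice with a knockout of Fmr1, which encodes FMRP, mice that lack Cpeb1, whose product binds mRNA and controls cytoplasmic polyadenylation, and mice with both knockouts, called the double knockout. All mice were 28 to 35 days old. All 4 groups are given the same strain, FVB.129P2-/Pde6b+ with the allele Tyr c-ch (//AntJ). Cytoplasmic lysate of both cortical hemispheres was divided between RNA-seq of rRNA-depleted, fragmented RNA and ribosome profiling, in which RNase leaves the short mRNA pieces covered by ribosomes (footprints). Per genotype and assay there are 2 libraries, which their titles number 1 and 2. Nothing in the labels says that these came from separate animals, so p-values measure the spread between these libraries, which may be technical. The labels name the alleles only as knockouts and restrict neither to a cell type. In such bulk tissue, fewer cells of a type and less RNA per cell cannot be told apart.

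RNA libraries held 5423919 to 10246479 rounded counts, with library 1 the deeper one of every genotype, and footprint libraries held 16239479 to 24973462. Fmr1 footprints were at 5.33 to 8.69 CPM (counts scaled to library size) in the 4 libraries with Fmr1 knocked out and at 94.8 to 108 in the other 4. Cpeb1 footprints were at 7.30 to 7.73 CPM where Cpeb1 was knocked out and at 33.4 to 36.7 elsewhere. Markers of cortical glutamatergic neurons summed to 3583 to 4792 CPM in footprints, and those of cerebellar granule cells to 0.0922 to 0.364.

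The members differed widely in level in WT cortex. Levels between genes are compared in TPM, which divides by the length counted, here the coding sequence. Rheb had the highest RNA level, with 334 and 314 TPM in the 2 WT libraries, higher than 96.0% of the genes tested. Akt1 followed at 106 and 133 TPM, and Nf1 at 118 and 107 TPM. The WT values of Akt1 and Nf1 overlapped, so their order is not resolved. Mtor was at 73.6 and 63.3 TPM and Tsc2 at 57.9 and 60.6 TPM. The partners that define the complexes were lower and overlapped each other, Rictor at 47.1 and 47.2 TPM and Rptor at 47.2 and 45.0 TPM. Tsc1 was lowest, at 33.9 and 34.7 TPM, although its protein works with that of Tsc2. All other neighbours in this order did not overlap, and the order was the same when CPM was divided by the deposited effective length.

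In footprints of WT cortex Rheb was again highest, at 354 and 384 TPM. The next value was that of Nf1, at 36.7 and 36.6 TPM. Akt1, at 33.7 and 32.9 TPM, and Mtor, at 33.8 and 32.6 TPM, overlapped. Rptor, at 28.9 and 27.7 TPM, and Tsc2, at 29.2 and 27.4 TPM, overlapped as well. Rictor was at 21.6 and 21.8 TPM and Tsc1 again lowest at 12.6 and 12.9 TPM. Rheb thus stood apart from the other members more in footprints than in RNA.

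**Figure D1:**
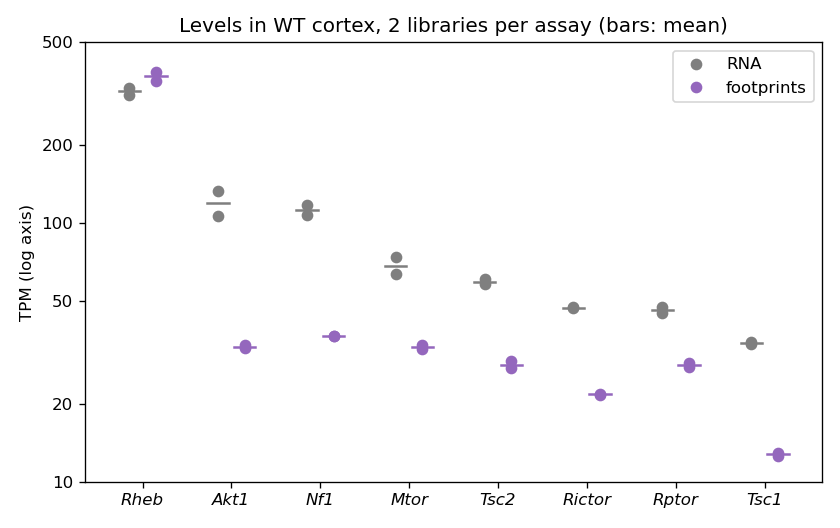
Level of each gene in WT cortex in TPM (log axis), ordered by RNA level, with a point for each of the 2 libraries of an assay and a bar for their mean. Rheb is highest in both assays, and its footprint points lie above its RNA points, while for the other 7 genes the footprint points lie below the RNA points.

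The log2 ratio of footprint to RNA TPM, taken within a library number, measures how densely an mRNA is occupied by ribosomes relative to other mRNAs. In WT its mean was 0.19 ± 0.15 (SD, n = 2) for Rheb and -0.70 ± 0.01 for Rptor, against a median of -0.63 over 13019 genes. Mtor was at -1.04 ± 0.11, Tsc2 at -1.07 ± 0.11, Rictor at -1.12 ± 0.01 and Tsc1 at -1.43 ± 0.00. The lowest values were those of Nf1, -1.62 ± 0.09, and Akt1, -1.84 ± 0.26. Rheb lay at percentile 81.7 of these genes and Akt1 at percentile 13.4, so 7 of the 8 members were below the median. These ratios are a description of WT and were not tested.

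The genes also differ in size, which matters below. Nf1 (chromosome 11, 79339590 to 79581609) and Mtor (chromosome 4, 148448582 to 148557685) were counted over 8523 and 7647 bases of coding sequence in the RNA tables, longer than 99.0% and 98.6% of the genes tested. Tsc2 (chromosome 17, 24595816 to 24632676) had 5350 bases, Rictor (chromosome 15, 6708349 to 6800401) 5124, Rptor (chromosome 11, 119602905 to 119899591) 4005 and Tsc1 (chromosome 2, 28640993 to 28691172) 3475. Akt1 (chromosome 12, 112653821 to 112674884) had 1451 bases, near the median of 1434. Rheb (chromosome 5, 24802823 to 24842361) had 552, longer than only 9.84% of the genes. Positions are those of the RefSeq annotation of GRCm38.p6.

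Rheb is also the only member whose RefSeq promoter window holds the letters CACGTG, a palindrome known as an E-box and read by factors that include TFEB, itself a target of mTORC1. Its sequence is shown because Rheb had the highest level of the members and fell in footprints of the double knockout. The 250 bases before the annotated start, chr5:24842362-24842611 of GRCm38.p6 on the minus strand, read 5′ to 3′ with the match in capitals:
Rheb: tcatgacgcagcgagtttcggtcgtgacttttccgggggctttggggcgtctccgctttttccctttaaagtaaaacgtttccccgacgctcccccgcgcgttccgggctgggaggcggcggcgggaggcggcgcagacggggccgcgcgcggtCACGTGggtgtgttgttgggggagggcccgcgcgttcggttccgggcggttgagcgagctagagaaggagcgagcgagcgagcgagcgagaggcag

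The match begins 96 bases before the start. A window covers 250 bases before to 50 after a start. The 250 bases of Nf1 lay within its annotated gene, and those of Tsc1, Tsc2 and Rictor in part. Less sequence was therefore searched before the ends of those annotated genes. CACGTG, which reads the same on both strands, occurred in 1 of the 9 windows of the 8 members and in 2349 of all 32851 RefSeq windows (7.15%). A match is a description of letters and not a measured binding site.

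Across genotypes, the clearest differences lay in the footprints of the double knockout. Nf1, the brake on RAS, fell against WT, and Rheb, the activator of mTORC1, fell against the Cpeb1 knockout. The other 6 members did not pass the test in any footprint comparison. Changes are given as log2 values with their SE, from edgeR's quasi-likelihood test with Benjamini-Hochberg adjustment over all 13774 genes tested in footprints, and a gene counts as called at an adjusted p under 0.05.

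Nf1 footprints were at 300.1 and 297 CPM in WT, 301 and 272 CPM in the Fmr1 knockout, 293 and 272 CPM in the Cpeb1 knockout, and 245 and 231 CPM in the double knockout. Both double knockout libraries lay below all 6 others. Against WT Nf1 fell by 0.33 ± 0.07 on the log2 scale (95% interval -0.48 to -0.18, edgeR adjusted p = 0.0319), by 0.29 between libraries 1 and by 0.36 between libraries 2. It was 1 of 8 members called, where 2.65% of all genes were called in this comparison, 1.15% lower and 1.5% higher. Against the Cpeb1 knockout the change was -0.25 ± 0.07 (edgeR adjusted p = 0.0522) and against the Fmr1 knockout -0.27 ± 0.07 (edgeR adjusted p = 0.104), neither of which passed. Against the Fmr1 knockout 0 members were called by edgeR and 1 by DESeq2, 3 members and 2184 of all 13774 genes had an unadjusted p under 0.05, and 0.334% of all genes were called. The call for Nf1 against WT is close to the threshold: the adjusted p was 0.0785 without the replicate block, 0.0649 with a correction for gene length, 0.102 when fitted on the 2 genotypes alone and 0.0034 in DESeq2. It rose above 0.05 without either Cpeb1 knockout library (0.0742 and 0.0728), either double knockout library (0.122 and 0.19) or WT library 2 (0.0991).

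Rheb footprints were at 159.8 and 172 CPM in WT, 181 and 140.3 CPM in the Fmr1 knockout, 175 and 154 CPM in the Cpeb1 knockout, and 136 and 119.5 CPM in the double knockout. Again both double knockout libraries were the lowest of the 8, and the Fmr1 knockout libraries were the farthest apart. Against the Cpeb1 knockout Rheb fell by 0.37 ± 0.10 on the log2 scale (95% interval -0.58 to -0.15, edgeR adjusted p = 0.0496), by 0.37 and 0.36 within the library numbers. It was the 1 member called in this comparison, in which 5.6% of all genes were called, 2.61% lower and 3% higher. Against WT its change was -0.39 ± 0.10 (edgeR adjusted p = 0.0576), larger in size but past the threshold only under some alternatives: without WT library 1 it was -0.56 (adjusted p = 0.0046) and without WT library 2 it was -0.20 (adjusted p = 0.302). Against the Fmr1 knockout it was -0.33 ± 0.10 (edgeR adjusted p = 0.152). The call against the Cpeb1 knockout rests on a p just under 0.05: it was 0.117 without the replicate block and 0.0518 with another scaling in edgeR, and 0.395, 0.197, 0.176 and 0.232 without Cpeb1 knockout library 1, library 2, double knockout library 1 and library 2.

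The comparisons of the double knockout share its 2 libraries, so their values are not independent of each other. In the authors' deposited table for footprints, Nf1 changed by -0.28 in the double knockout against WT (adjusted p = 0.000565), by -0.21 against the Cpeb1 knockout (0.0121) and by -0.23 against the Fmr1 knockout (0.0101). In the authors' deposited table Rheb changed by -0.33 (adjusted p = 0.00791), -0.32 (0.00749) and -0.30 (0.0339) in the same order. Both genes thus passed 0.05 in all 3 comparisons there. Of all 15169 genes in those tables, 743, 1173 and 356 passed in the same order. The authors' values come from the same libraries and are not further evidence. For the targeted genes too, their changes in the double knockout against WT were smaller in size. Fmr1 footprints had -3.42 beside -4.16 in edgeR, and Cpeb1 footprints -1.77 beside -2.16. Sizes are therefore not compared between the authors' tables and edgeR.

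**Figure D2:**
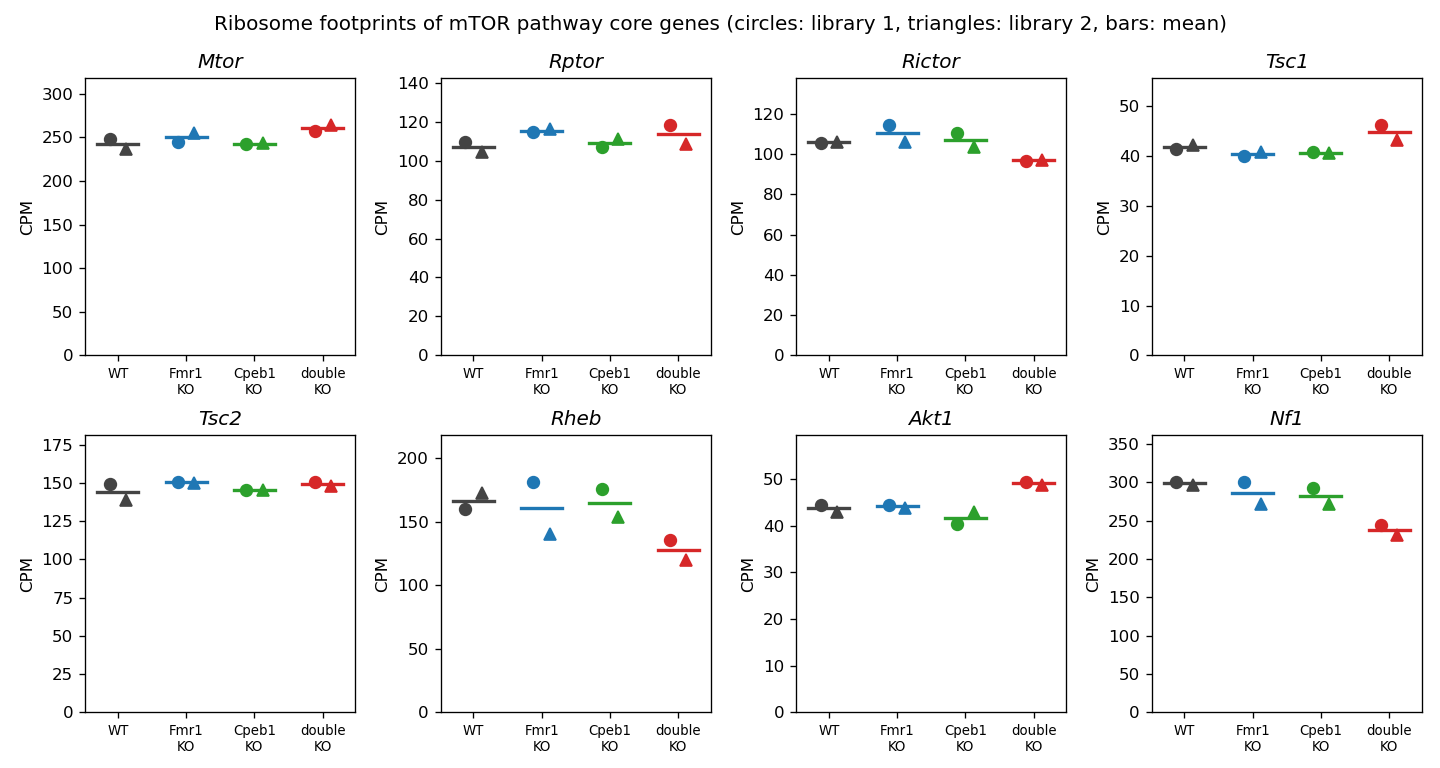
Footprint level of each member in CPM by genotype, with a circle for library 1, a triangle for library 2 and a bar for their mean. For Nf1, Rheb and Rictor both double knockout points lie below all points of the other genotypes. For Mtor, Tsc1 and Akt1 both lie above them.

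The kinase subunits and the TSC complex gave narrow footprint ranges. Mtor footprints were at 248 and 237 CPM in WT, 245 and 255 CPM in the Fmr1 knockout, 243 and 243 CPM in the Cpeb1 knockout, and 257 and 265 CPM in the double knockout. The highest library exceeded the lowest by a factor of 1.12, and the double knockout against WT gave 0.10 with an interval from -0.04 to 0.25 (edgeR adjusted p = 0.412). Rptor ran from 105 to 118 CPM, with overlapping libraries of WT and double knockout and a change of 0.08 ± 0.08 between them. Rictor was at 106 and 106 CPM in WT and at 96.7 and 97.2 CPM in the double knockout, the lowest 2 of its 8 values. That difference was -0.13 ± 0.08 (edgeR adjusted p = 0.386) and did not pass.

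Tsc1 footprints ran from 40.0 to 46.3 CPM, and the double knockout libraries, at 46.3 and 43.2 CPM, were the highest 2. The change against WT was 0.10 ± 0.09 and did not pass (edgeR adjusted p = 0.535). Tsc2 had the narrowest range of the 8 genes, from 139 to 151 CPM, a factor of 1.09, and its double knockout libraries overlapped those of WT. Its change there was 0.05 ± 0.07, with an interval from -0.11 to 0.21.

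Akt1 footprints were at 44.4 and 43.0 CPM in WT, 44.5 and 43.8 CPM in the Fmr1 knockout, 40.3 and 42.9 CPM in the Cpeb1 knockout, and 49.5 and 48.7 CPM in the double knockout. Both double knockout libraries were higher than the other 6. The change was 0.17 ± 0.09 against WT (edgeR adjusted p = 0.287) and 0.24 ± 0.09 against the Cpeb1 knockout (edgeR adjusted p = 0.112), and neither passed. The level of Akt1 is therefore reported as higher in these 2 libraries without a called change.

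Non-overlap of 2 against 2 libraries was common. In the double knockout against WT 6 of 8 members did not overlap, where 52.4% of all genes did not. Against the Cpeb1 knockout it was 7 of 8 members beside 52.3% of genes, and against the Fmr1 knockout 6 of 8 beside 43.2%. The share of all genes with both double knockout libraries above or below all other libraries was not computed. That pattern is therefore not read as particular to the members. The median change of the 8 members in the double knockout against WT was 0.07, and that of all genes was 0.00. The members thus did not move in the same direction: 5 had a change above 0 and 3 below.

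Cell type markers also differed between these footprint libraries. The sum of 6 glutamatergic neuron markers was 4159 to 4792 CPM in the double knockout and 3711 to 3876 CPM in WT, with 1 of 6 markers called higher. The sum of 5 microglia markers was 17.6 to 24.8 CPM in the double knockout, 26.2 to 36.6 CPM in WT and 32.9 to 33.7 CPM in the Cpeb1 knockout, and 1 of 5 was called lower against each. Of 5 astrocyte and 5 oligodendrocyte markers, 1 each was called lower against WT, and 0 of 6 GABAergic and 0 of 4 endothelial markers were called. The 4 striatal markers summed to 474 to 569 CPM in the double knockout and 375 to 435 CPM in WT, and the 3 choroid plexus markers to 44.6 to 62.1 CPM and 22.3 to 24.8 CPM, with 0 called in both lists. In footprints no marker of these lists was at 0 in both libraries of a genotype. The part of these differences in the values of Nf1 and Rheb was not tested.

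In the single knockouts, no footprint change of any member passed against WT. In the Fmr1 knockout the 8 changes ran from -0.06 for Nf1 to 0.11 for Rptor, and the intervals together spanned -0.27 to 0.28, so that changes beyond these bounds lie outside every interval. The smallest edgeR adjusted p was 0.983, and 0.0581% of all genes were called. In the Cpeb1 knockout the changes ran from -0.08 for Nf1 to 0.03 for Rptor, with intervals spanning -0.26 to 0.20, and 0.0799% of all genes were called. No member passed between the 2 single knockouts either, where changes ran from -0.04 for Rheb to 0.09 for Akt1 and 0.0581% of genes were called. In these 3 comparisons 0 members had an unadjusted p under 0.05 in edgeR, and DESeq2 called 0. The libraries of 4 of 8 members did not overlap between the Fmr1 knockout and WT, beside 30.7% of all genes, those of 3 between the Cpeb1 knockout and WT, beside 29.9%, and those of 4 between the single knockouts, beside 29.8%. The intervals bound the size of a change and do not show that the levels were equal.

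In RNA, 0 of 8 members were called in any pair of genotypes by edgeR's quasi-likelihood test over 13287 genes. That test also did not call the targeted gene Cpeb1, at -1.12 ± 0.18 in the Cpeb1 knockout against WT (edgeR adjusted p = 0.225). In the double knockout against WT Cpeb1 was at -1.165 ± 0.183 (edgeR adjusted p = 0.376), so changes of this size went uncalled. Fmr1 was called, at -2.18 ± 0.13 in the Fmr1 knockout against WT (edgeR adjusted p = 5.64e-05). The same test called 0.00753% of all genes in the Fmr1 knockout against WT and 0% in the Cpeb1 knockout against WT, and 0% or 0.00753% in the other pairs. DESeq2 also called 0 members in these 6 pairs. Rheb alone had an unadjusted p under 0.05 in each of the 3 pairs that include the double knockout, beside 562 genes against WT, 2550 against the Cpeb1 knockout and 2087 against the Fmr1 knockout, and 0 members had one in the other pairs. The 2 libraries of a genotype did not overlap with those of WT in 3 of 8 members for the Fmr1 knockout, beside 41.3% of all genes, in 0 for the Cpeb1 knockout, beside 40.9%, and in 2 for the double knockout, beside 29.7%. The double knockout did not overlap with the Fmr1 knockout in 3 members, beside 43% of genes, nor with the Cpeb1 knockout in 2, beside 43.5%, and the single knockouts overlapped in all 8, where 24.6% of genes did not.

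RNA of Rheb measured 119 and 112 CPM in WT, 149 and 110.0 CPM in the Fmr1 knockout, 153 and 104 CPM in the Cpeb1 knockout, and 97.5 and 85.9 CPM in the double knockout. Both double knockout libraries were below the other 6, as in footprints. The changes were -0.34 ± 0.13 against WT (edgeR adjusted p = 0.966), -0.48 ± 0.13 against the Cpeb1 knockout (edgeR adjusted p = 0.121) and -0.49 ± 0.13 against the Fmr1 knockout (edgeR adjusted p = 0.206). In the authors' deposited table the RNA change against the Cpeb1 knockout was -0.32 with an adjusted p of 0.047. That against the Fmr1 knockout was -0.33 with an adjusted p of 0.0625, and the adjusted p against WT was 0.99993. Of 15086 genes there, 459 passed 0.05 against the Cpeb1 knockout, 202 against the Fmr1 knockout and 2 against WT.

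RNA of Nf1 measured 692 and 631 CPM in WT, 604 and 687 CPM in the Fmr1 knockout, 608 and 748 CPM in the Cpeb1 knockout, and 681 and 522 CPM in the double knockout. Here the genotypes overlapped, and the lowest value was that of double knockout library 2. The change of the double knockout against WT was -0.14 ± 0.15, with an interval from -0.47 to 0.20 that holds both 0 and the size of the footprint change.

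The other members scattered in RNA by library number. Mtor was at 388 and 334 CPM in WT and at 322 and 348 CPM in the Fmr1 knockout, a difference of -0.27 between libraries 1 and 0.06 between libraries 2. Rptor was at 129.8 and 124 CPM in WT and 97.5 and 134 CPM in the Cpeb1 knockout, differences of -0.41 and 0.12. The 2 library pairs thus differed in sign for these genes. Of the 16 member comparisons of the single knockouts with WT in RNA, 10 had opposite signs in libraries 1 and in libraries 2.

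**Figure D3:**
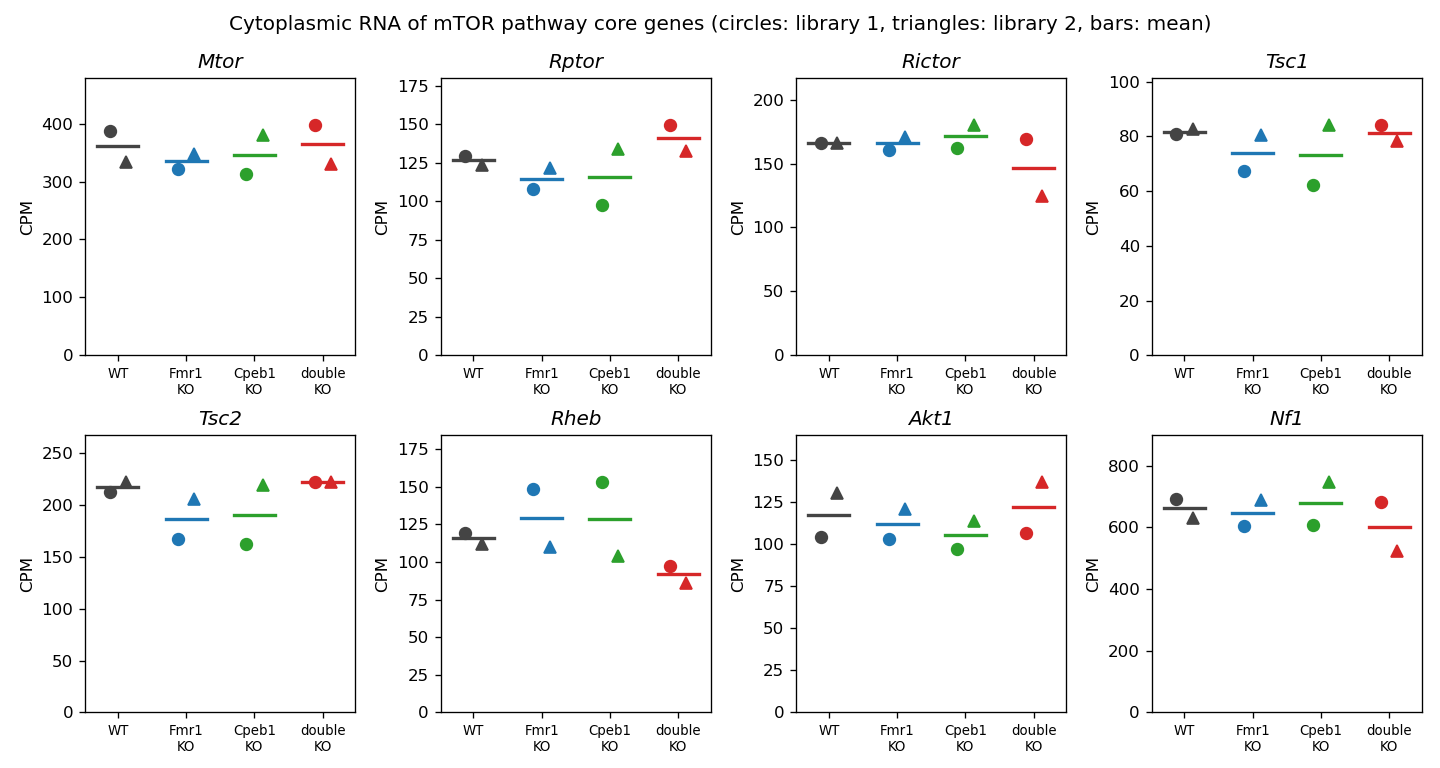
Cytoplasmic RNA level of each member in CPM by genotype, with a circle for library 1, a triangle for library 2 and a bar for their mean. For Rheb both double knockout points are below all others, and for Nf1 the points of the genotypes overlap.

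A pooled comparison, for which the authors also deposited a table, grouped the Fmr1 and the Cpeb1 knockout together, 4 libraries, and set them against the 4 libraries of WT and double knockout. In RNA 7.31% of all genes were called in it, 2.22% higher and 5.09% lower in the single knockouts, and 0 of the 8 members by edgeR. At an unadjusted p under 0.05 there were 3 members beside 3421 of all 13287 genes, and DESeq2 called 1, Tsc2. Tsc2 was also closest to the threshold in edgeR. RNA of Tsc2 measured 213 and 223 CPM in WT, 223 and 222 CPM in the double knockout, 168 and 206 CPM in the Fmr1 knockout and 162 and 219 CPM in the Cpeb1 knockout. Only Cpeb1 knockout library 2 lay within the range of the WT libraries, and the other 3 single knockout libraries lay below it. The change was -0.23 ± 0.08 (edgeR adjusted p = 0.0841), and it passed in DESeq2 (-0.25, adjusted p = 0.0493) and without double knockout library 2 (-0.29, edgeR adjusted p = 0.038), 2 of 15 alternatives. With a correction for coding length it was -0.11 (edgeR adjusted p = 0.24). In the authors' deposited table Tsc2 was 0.19 higher in WT and the double knockout, with an adjusted p of 0.0347. There 1372 of 15086 genes passed 0.05.

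In the same comparison Rheb gave 0.30 ± 0.10 (edgeR adjusted p = 0.0855), and it passed without WT library 2 (0.42, adjusted p = 0.0177). Rptor gave -0.23 ± 0.10 (edgeR adjusted p = 0.153), Tsc1 -0.16 ± 0.09, Akt1 -0.13 ± 0.07, Mtor -0.09 ± 0.09, Rictor 0.11 ± 0.10 and Nf1 0.07 ± 0.10. The median over the members was -0.11 and that over all genes 0.03. In footprints the pooled comparison called 0% of all genes, and 0 members were called by edgeR, by DESeq2 or at an unadjusted p under 0.05.

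Coding length moved with this RNA comparison. The median change was 0.11 over 3937 genes under 1000 bases, 0.02 from 1000 to 2000 bases, -0.04 from 2000 to 4000 bases and -0.10 over 991 genes above 4000 bases. The shortest member, Rheb, had the highest change, and the members with changes below 0 were Mtor, Tsc2, Rptor, Tsc1 and Akt1, while Nf1 and Rictor, also long, were above 0. With a correction for coding length 693 genes were called higher and 777 lower, in place of 295 and 676, and Nf1 passed, at 0.22 (edgeR adjusted p = 0.0317). In footprints of the double knockout against WT the same classes had medians of 0.01, 0.00, -0.01 and -0.04.

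Translational efficiency compares the change in footprints with that in RNA and was tested as an interaction over all 16 libraries and 13027 genes. That test did not pair the RNA and footprint libraries of a genotype and number, although lysate was divided between the assays. Pairing them, as an alternative, gave 332 called genes in the pooled comparison in place of 24. Without that pairing, no member was called in any of the 7 comparisons by edgeR or DESeq2. Of all genes edgeR called 0.0154% in the Fmr1 knockout against WT, 0% or 0.00768% in the other pairs of genotypes and 0.184% in the pooled comparison. At an unadjusted p under 0.05 there was 1 member in the Fmr1 knockout against WT, 2 members between the Fmr1 and the double knockout, 2 in the pooled comparison and 0 in the other 4, beside 1027, 861 and 1734 of all genes in the first 3. In the double knockout against WT Rheb had -0.07 ± 0.17 (edgeR adjusted p = 1.00) and Nf1 -0.21 ± 0.18, also at an adjusted p of 1.00. For Rheb the value against the Cpeb1 knockout was 0.07 ± 0.17. The intervals are wide, from -0.44 to 0.30 for Rheb and from -0.59 to 0.17 for Nf1 against WT, and each holds both 0 and the size of the footprint change.

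In the pooled comparison of translational efficiency Rptor gave 0.29 ± 0.12 (edgeR adjusted p = 0.311) and Tsc2 0.28 ± 0.10 (edgeR adjusted p = 0.209), both higher in the single knockouts and neither called. In the Fmr1 knockout against WT Tsc2 gave 0.32 ± 0.15 (edgeR adjusted p = 0.622) and Rptor 0.29 ± 0.18. In the authors' deposited table for translational efficiency Tsc2 was likewise highest of the members in that pair, at 0.27 with an adjusted p of 0.0827. No member passed 0.05 in any of its pairs, while 431 of 14563 genes passed between the Fmr1 knockout and WT. Footprints of Tsc2 and Rptor ran only from 139 to 151 CPM and from 105 to 118 CPM, and their RNA from 162 to 223 CPM and from 97.5 to 149.9 CPM. Coding length moved with RNA of the Fmr1 knockout against WT as well. The median change was 0.11 under 1000 bases and -0.11 over 4000 bases, the class of Tsc2 and Rptor. The edgeR efficiency values above are without a correction for coding length.

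**Figure D4:**
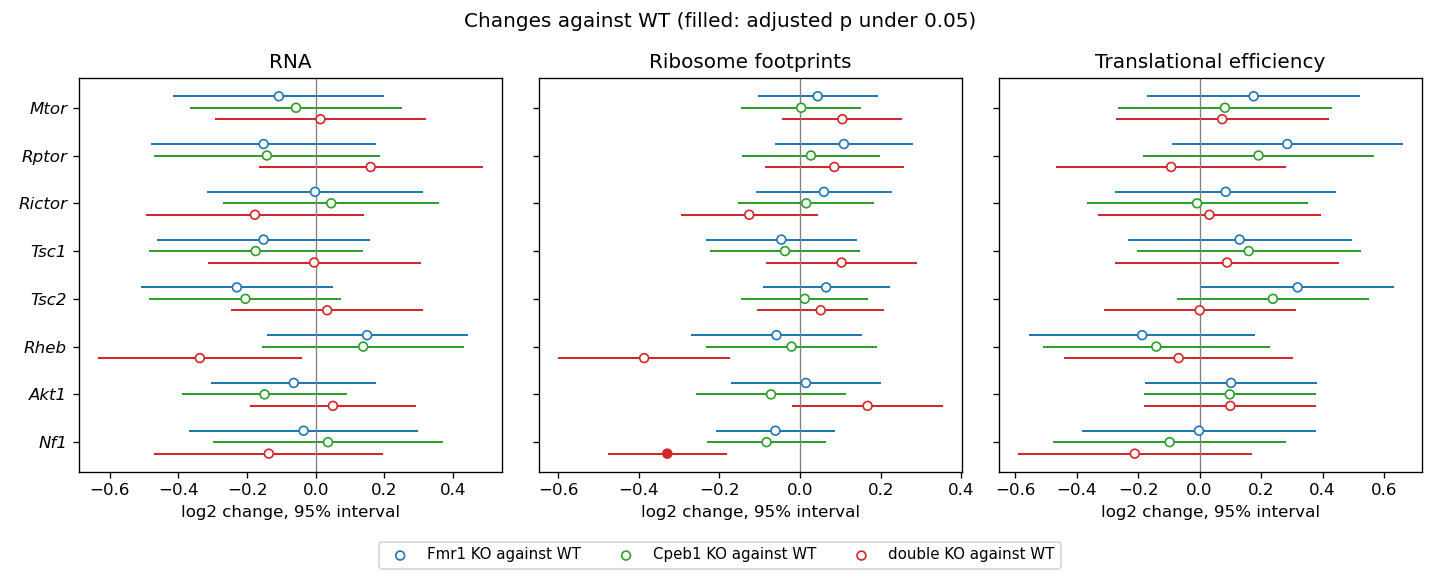
Log2 change of each member against WT in RNA, footprints and translational efficiency, for the Fmr1, Cpeb1 and double knockouts, with 95% intervals from edgeR and a filled point at an adjusted p under 0.05. Only Nf1 footprints in the double knockout are filled, at -0.33, and the intervals of RNA and translational efficiency are wider than those of footprints.

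Around these 8 genes, a list of 105 other genes of the pathway was followed, in groups for complex subunits, TSC and Rheb partners, lysosomal nutrient input, the GATOR complexes and their sensors, PI3K to AKT signalling, energy and stress input, RAS to ERK signalling, and outputs. All 105 were tested in footprints and 103 in RNA. In RNA edgeR called 0 of the 103 in every pair of genotypes, with 1 to 26 at an unadjusted p under 0.05 beside 247 to 2550 of all 13287 genes, and DESeq2 called 0 to 2. In footprints edgeR and DESeq2 called 0 of the 105 between WT and the single knockouts, between the 2 single knockouts and in the pooled comparison, with 2 to 8 at an unadjusted p under 0.05 beside 534 to 957 of all 13774 genes. Between the Fmr1 and the double knockout edgeR called 0, with 23 at an unadjusted p under 0.05 beside 2184 of all genes, and DESeq2 called 1. For translational efficiency edgeR called 0 of 103 in each of the 7 comparisons, with 1 to 19 at an unadjusted p under 0.05 beside 210 to 1734 of all 13027 genes, and DESeq2 called 1 in the pooled comparison and 0 in the others.

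In footprints of the double knockout against WT 4 of the 105 genes were called, 1 lower and 3 higher, where 2.65% of all genes were called. Pik3r2, a regulatory subunit of PI3K, was at 81.9 and 76.1 CPM in WT and 101 and 105 CPM in the double knockout and rose by 0.38 ± 0.09 (edgeR adjusted p = 0.0427). Rasal1, like Nf1 a GTPase-activating protein for RAS, rose from 110.0 and 109 CPM to 139.8 and 144 CPM, by 0.38 ± 0.08 (edgeR adjusted p = 0.0329). Irs2, an adaptor of insulin and IGF receptors, rose by 0.53 ± 0.11 (edgeR adjusted p = 0.0359). Nf1 and Rasal1, which both restrain RAS, thus moved in opposite directions. Cell type marker sums differed between the same libraries, as given above. Without the replicate block all 4 lost the call, with adjusted p of 0.0785 for Pik3r2, 0.074 for Rasal1 and 0.0719 for Irs2. The count of 4 became 0 without either double knockout or either Cpeb1 knockout library, 2 without either Fmr1 knockout library, 11 without WT library 1 and 1 without WT library 2. It was 0 with only the genotypes compared, 8 in DESeq2 and 7 with no filter.

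Against the Cpeb1 knockout 6 of the 105 were called, 3 lower and 3 higher, where 5.6% of all genes were called. Pik3r3, another regulatory subunit of PI3K, fell by 0.57 ± 0.13. Rasal1 rose by 0.39 ± 0.08 and Pik3r2 by 0.47 ± 0.09. Akt1s1, which encodes the mTORC1 inhibitor PRAS40, was at 13.5 and 17.7 CPM in the Cpeb1 knockout and 22.8 and 22.3 CPM in the double knockout, and rose by 0.54 ± 0.12 (edgeR adjusted p = 0.028). Without the replicate block only Pik3r2 (0.039) and Rasal1 (0.0499) kept an adjusted p under 0.05. The count of 6 became 0 without either double knockout or either Cpeb1 knockout library and 19 without either WT library, and it was 10 with only the genotypes compared.

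By group, PI3K to AKT signalling gave 3 called genes of 19 against WT and 3 of 19 against the Cpeb1 knockout, and RAS to ERK signalling gave 1 and 2 of 19. The complex subunits gave 0 and 1 of 8. The GATOR group, with 14 genes, the nutrient group, with 13, the energy group, with 6, the TSC and Rheb partners, with 2, and the outputs, with 24, gave 0 in both. The median change over the 105 genes against WT was 0.00, as over all genes.

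In the pooled RNA comparison 10 of 103 genes were called, 9 lower and 1 higher in the single knockouts, beside 7.31% of all genes called, 5.09% lower and 2.22% higher. Agap2, a GTPase that stimulates PI3K, was at 1025 and 1047 CPM in WT, 1195 and 1026 CPM in the double knockout, 671 and 749 CPM in the Fmr1 knockout and 602 and 763 CPM in the Cpeb1 knockout. Its 4 single knockout libraries were below the other 4, and it fell by 0.63 ± 0.08 (edgeR adjusted p = 0.00612). Ulk1, the kinase that starts autophagy, fell by 0.49 ± 0.12. Also lower were Prr5, a subunit of mTORC2 counted at only 2.28 to 6.04 CPM, with -0.76 ± 0.21, Rps6kb2, an S6 kinase, with -0.48 ± 0.14, Eef2k, the kinase of elongation factor 2, with -0.39 ± 0.10, Pik3r2 with -0.38 ± 0.08, Dab2ip with -0.37 ± 0.08, and Phlpp2, a phosphatase of AKT, with -0.32 ± 0.09. The median over the list was -0.01 and over all genes 0.03.

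Agap2 was called under all 15 alternatives, whereas Prr5 and Rps6kb2 were called under 5 each, Phlpp2 under 7, Ulk1 and Eef2k under 8 each, Dab2ip under 9 and Pik3r2 under 12. The count of 10 ranged from 1, without Fmr1 knockout library 1, to 19, without WT library 2, and it was 2 or 3 without Cpeb1 knockout library 1, double knockout library 1, Fmr1 knockout library 2 or WT library 1, and 16 without double knockout library 2. It was 4 without the replicate block, 2 as a contrast in the fit of 4 genotypes, 15 with no filter and 15 with a correction for coding length. In the same RNA libraries 3 of 6 glutamatergic neuron markers were called lower in the single knockouts, with a median of -0.39 over the 6, 1 of 4 striatal markers was called lower, with a median of -0.44, and 1 of 6 GABAergic markers was called higher. The part of these markers in the list's values was not tested.

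Close relatives of the members were measured apart from them. In WT RNA Akt1 was at 120 ± 18.9 TPM (SD, n = 2) and Akt2 at 75.0 ± 11.3 TPM. Rhebl1, the relative of Rheb, was at 8.07 ± 0.721 TPM in RNA and 5.57 ± 0.983 TPM in footprints, against 324 ± 14.6 and 369 ± 21.2 TPM for Rheb. How reads shared by such relatives were divided was set by the authors' counting.

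The most abundant genes of the listed groups in WT RNA set a scale for the members. Eef2, the elongation factor among the outputs, was at 695 ± 38.3 TPM, Agap2 at 425 ± 6.20 TPM and Gsk3b, a kinase held in check by AKT, at 243 ± 2.59 TPM. The Rag GTPase gene Rraga was at 211 ± 25.0 TPM, the leucine sensor gene family member Sesn3 at 97.7 ± 9.37 TPM, the mTORC2 subunit gene Mapkap1 at 63.2 ± 10.4 TPM and the TSC complex subunit gene Tbc1d7 at 40.2 ± 9.42 TPM. The means of Rictor, 47.1 TPM, and Rptor, 46.1 TPM, lay between those of Tbc1d7 and Mapkap1. That of Mtor, 68.5 ± 7.25 TPM, lay above the mean of Mapkap1.

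For each member the genes most alike in footprints were taken by Pearson's r of log2 CPM over the 8 footprint libraries, among 10667 genes averaging at least 100 counts. Rheb was most like Trnt1 (r = 0.997) and Zmym5 (0.989), Nf1 most like Fcho2 (0.994) and Vcpip1 (0.980), and Akt1 most like Apba3 (0.988) and Ccnd3 (0.984). Mtor came with Carhsp1 (0.982), Rictor with Ube2l3 (0.988) and B3galt2 (0.984), and Tsc1 with Zfp398 (0.975) and Mtus2 (0.964). For Tsc2 the closest were Mau2 (0.948) and Ubqln4 (0.944), and for Rptor Tsta3 (0.933) and Plagl1 (0.919). With 8 points that share libraries and scaling, the highest of so many values is large for any gene, and no member was the closest match of another.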

How the data were processed

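Cortical cytoplasm of 4 genotypes was profiled by RNA-seq and ribosome profiling, with 2 libraries per genotype and assay and 16 in all. The deposited gene tables hold expected counts and TPM, made by the authors with tools that the submitters' processing notes name as cutadapt, Bowtie2, TopHat2 and RSEM on build mm10, in versions not given in the sources used here. The authors' deposited comparison tables hold log2 fold changes and adjusted p-values, from DESeq2 and Xtail per the series design text.

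The expected counts were rounded. RNA libraries totalled 5423919 to 10246479 counts and footprint libraries 16239479 to 24973462. Genes were filtered with filterByExpr at a minimum count of 10, scaled by TMM, and tested with edgeR 4.0.16 (R 4.3.3, limma 3.58.1) by a quasi-likelihood test with Benjamini-Hochberg adjustment over all genes tested, at a threshold of 0.05. RNA and footprints were fitted over the 8 libraries of the assay, and translational efficiency as an interaction over all 16. The replicate number was a block, after batch correction recalled from the study's methods, which no label records. CPM values use TMM-scaled library sizes, without a pseudocount except in log2 values, where the prior count was 2. The fit was tested on simulated counts.

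The 8 genes and the pathway and marker lists were chosen with earlier results of these data known. Of the pathway list, all genes called in any comparison were named, at most 5 per group and comparison, with the most abundant gene of each group in WT RNA and the 2 genes most like each member over the footprint libraries. Some genes that this rule names are not reported here, and the counts over the lists include them. Alternatives were DESeq2 1.42.0, another scaling, other filters, no block, a coding-length correction, only the genotypes compared, and leaving out each library. A further alternative paired the RNA and footprint libraries of a genotype and number in the test of translational efficiency. Promoter windows and positions come from RefSeq for GRCm38.p6.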

Additional observations from a re-analysis of the deposited data

How the results depend on the processing

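Over all alternatives, 2576 values of the members' log2 changes were computed. Of these 176 changed sign, all among values that were not called, 20 newly passed the threshold, 14 lost the call, and 0 called values reversed. For footprints of the double knockout against WT, 1 member was called, against 2 in DESeq2, 2 with at least 10 counts in every library, 2 with no filter, 0 with the coding-length correction, 0 without the replicate block, 0 with only the genotypes compared, and 0 to 2 when leaving out each library. Against the Cpeb1 knockout the count of 1 became 2 in DESeq2, 0 with the other scaling in edgeR, 0 without the replicate block, 2 with only the genotypes compared, and 0 to 2 when leaving out each library. Against the Fmr1 knockout the count of 0 became 1 in DESeq2, 2 with only the genotypes compared, and 0 to 2 when leaving out each library. In RNA the count of 0 became 1 in the pooled comparison in DESeq2 and with the coding-length correction, and ranged from 0 to 1 when leaving out each library, as it did for the double knockout against the Cpeb1 knockout. Where a setting changed a count, the cause was not tested. Counts over all genes in DESeq2 and under the other filters are not reported here for every comparison. A higher member count there is therefore not read as a result about the members.

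Counts over all genes moved more. In footprints of the double knockout, the 365 calls against WT became 73 without the replicate block, 85 with only the genotypes compared and 31 to 1318 when leaving out each library. The 772 against the Cpeb1 knockout became 207, 1701 and 5 to 1987. The 46 against the Fmr1 knockout became 4, 762 and 7 to 543, with 202 in DESeq2, 76 with the coding-length correction and 165 with no filter. In the pooled RNA comparison 971 became 380 without the block, 274 as a contrast in the fit of 4 genotypes, 1470 with the coding-length correction and 140 to 1433 when leaving out each library. The comparisons with few calls held 0 to 1 genes in RNA, 0 to 11 in footprints and 0 to 24 in translational efficiency. Under alternatives other than leaving out a library they reached up to 582, 141 and 332. The 332 came from the pooled comparison with the RNA and footprint libraries of a genotype and number paired.

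The replicate numbers did not pair the libraries throughout. Deviations of same-numbered libraries correlated from -0.04 to 0.29 in RNA and from -0.07 to 0.33 in footprints across genes. Both highest values were those between the Fmr1 and the Cpeb1 knockout. In RNA the number also went with depth, at 8365056 to 10246479 counts in libraries 1 and 5423919 to 6528717 in libraries 2. What else the number stands for is not recorded. In counts simulated at the depth and group size of these libraries, over 13774 genes for footprints of the double knockout against WT, 1.64% of changes of 0.25 on the log2 scale and 55.2% of changes of 0.5 were recovered. For RNA, over 13287 genes, it was 1.22% and 13.0%, and in the pooled RNA comparison of 4 against 4 libraries 7.04% and 58.2%. Depth was not varied. For footprints the rates are over 61 genes changed by 0.25 and 67 changed by 0.5, and they were not split by expression level. They are therefore not read as the chance of calling such a change in the members.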
